A study of Mus musculus with 45 samples.

Results

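The endometrium and the myometrium of 7 female Plag1KO mice were compared across genes, with each mouse giving both tissue layers. The members are the 16 libraries, of 45 in the series, whose names begin with endo_KO or myo_KO: 9 of endometrium, because the endometrium of mouse 13 was sequenced in 3 libraries, and 7 of myometrium. The 3 libraries of mouse 13 were summed, so that each mouse counted once, and the main counts are also given without that mouse. The KO mice carried the numbers 2, 4, 6, 9, 11, 13 and 14, and 15 libraries of the same layers from 7 WT mice, with the 2 myometrium libraries of WT mouse 12 summed, were used for comparison.

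Females of the outbred CD-1 stock, aged between 1 and 3 months, were either WT or Plag1KO, an allele in which lacZ stands in for the whole Plag1 reading frame in every cell of the animal. Both genotypes had been superovulated with 5 IU of pregnant mare serum gonadotropin and, 2 days later, 5 IU of human chorionic gonadotropin, and were killed the next day. Superovulated females of the study could be mated with WT studs, and whether these mice were is not stated in the sources used here. The uterine horn was opened lengthwise, its inner surface was scraped to give the endometrium, and the wall that remained was taken as the myometrium. Each layer is therefore a dissection and not a pure cell population. Counts came from STRT, a method that reads the 5′ end of each transcript and counts molecules by a short random barcode, in a single multiplexed library made from 10 ng of RNA per sample.

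The lining of the uterus consists of a luminal epithelium, glands that open into it and a stroma beneath, whereas the myometrium consists of smooth muscle with the connective tissue, vessels and nerves that run through it. Around ovulation estrogen acts on the epithelium, which then secretes antimicrobial and fluid-regulating proteins into the lumen. Smooth muscle is recognised by a set of contractile proteins, such as smooth muscle actin and myosin. Some of their genes carry a promoter element called the CArG box, a run of A and T framed by CC and GG that binds serum response factor.

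Total counts ranged from 468519 to 1024124 in the endometrium libraries of KO mice and from 318286 to 701157 in their myometrium libraries, and a floor of 3 counts stood for 2.96 to 6.53 CPM (counts scaled to library size) in the former and 4.34 to 9.68 CPM in the latter. Plag1 (chromosome 4, 3828143 to 3865570, mm9) gave 2 counts over all endometrium libraries of the KO mice and 1 over their myometrium libraries. The WT libraries of the same layers gave 0 and 1, so that at this depth Plag1 could not check the genotype labels. Total counts averaged 711795 ± 176038 (SD, n = 7 mice) in endometrium and 548037 ± 126882 in myometrium (two-sided exact permutation test over mice, p = 0.0469, adjusted 0.0703 over 3 measures, higher in 6 of 7 mice). The share of counts from the ERCC spike-ins, RNAs added in equal amounts to each sample, was 1.23% ± 0.359 in endometrium and 1.66% ± 0.428 in myometrium, lower in endometrium in 7 of 7 mice (exact permutation p = 0.0156, the smallest 7 pairs can give, adjusted 0.0469). The part of depth and spike-in share in the gene differences was not tested. The letter in each library's code went with the layer except in 2 repeats of KO mouse 13 and 1 repeat of WT mouse 12, so that anything tied to that letter cannot be told apart from layer.

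Of 12969 genes tested, 2776 (21.4%) differed between the layers at an adjusted p under 0.05 (edgeR's quasi-likelihood test with mouse as a block). Of these, 1538 genes (11.9% of those tested) were higher in endometrium and 1238 (9.55%) were lower, so that 55.4% of the calls were higher (95% Wilson interval 53.5 to 57.2%). That interval treats genes as independent, which they are not, and it does not cover the spread among mice. With 1 mouse left out the share was 50.8 to 55.4%. With libraries scaled to the spike-ins in place of gene counts, 4040 genes were called and 83.8% of them were higher in endometrium. Over the whole table the median then stood at 0.54 on the log2 scale in place of 0.07, and medians of gene lists are to be read against 0.07. Counts of list members called higher or lower are to be read against 11.9% and 9.55%. Without mouse 13, 2581 of 12635 genes (20.4%) differed, 1318 higher (10.4%) and 1263 lower (10.0%). Called both with and without that mouse were 2395 genes, and in each of them the direction was the same. In mice 2, 4 and 6, with label codes A to C, and in mice 9, 11, 13 and 14, with codes D to F, 1461 and 1277 genes were called when each set was fitted alone. The ranges of the 7 endometria and the 7 myometria did not overlap for 711 genes (5.48%). Differences were often large: 182 of the called genes were at least 8-fold higher in endometrium and 155 at least 8-fold lower, and 23 of the latter were on the smooth muscle list. In bulk tissue, fewer cells of a type and less RNA per cell cannot be told apart, and this holds for every difference given here.

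**Figure D1:**
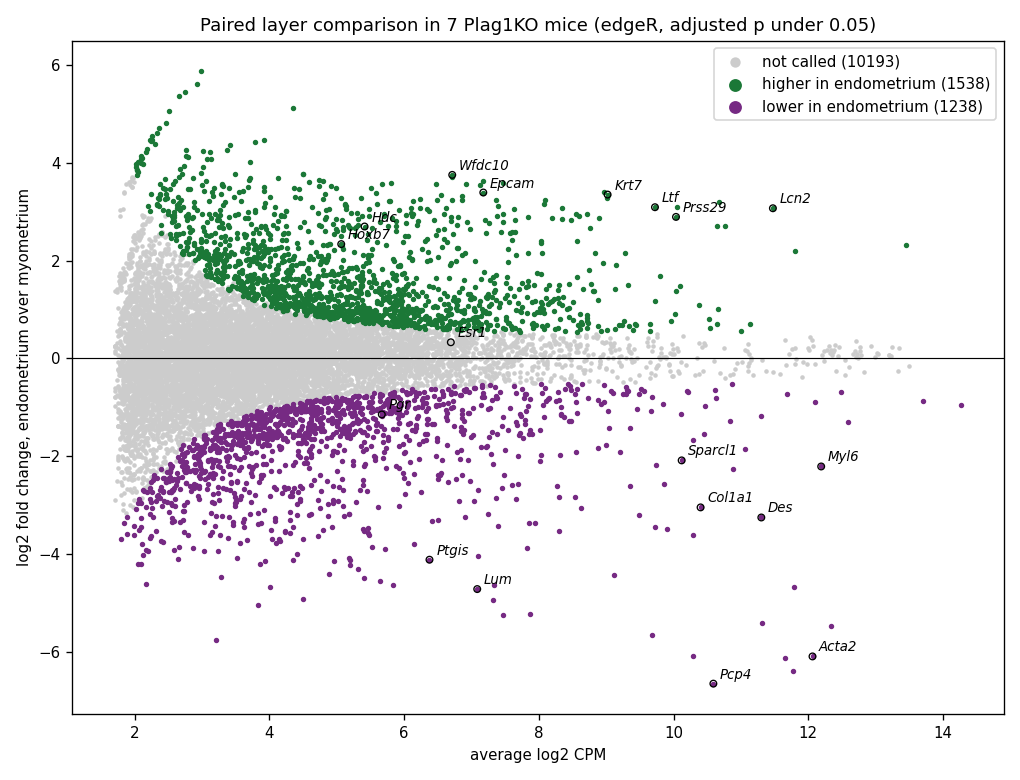
Log2 fold change of endometrium over myometrium (vertical axis) against mean log2 CPM (horizontal axis) for the 12969 genes tested in 7 KO mice, each point a gene. Genes past an adjusted p of 0.05 are coloured by direction, 1538 higher (green) and 1238 lower (purple), and the lowest points include Acta2 at −6.09 and Pcp4 at −6.65.

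Promoters of 6 genes of the smooth muscle list are printed here, with the CArG box in capitals. The list held the deepest differences between the layers, but these genes were taken for their box and not for their depth. Myl9 had a log2 fold change of −5.41, and the others lay between −3.18 (Fhl1) and −1.38 (Srf), against a list median of −3.20. The sequences are RefSeq promoters on GRCm38.p6, written 5′ to 3′ on the strand of the gene. They stand for Myl9 (myosin light chain, chr2:156775273-156775342, + strand), Fhl1 (a LIM protein of muscle, chrX:56779551-56779620, + strand), Vcl (vinculin, which anchors actin at adhesions, chr14:20929148-20929210, + strand), Ldb3 (a protein of the contractile lattice, chr14:34588682-34588746, − strand), Myl6 (chr10:128493020-128493089, − strand) and Srf (serum response factor itself, chr17:46556185-46556274, − strand).
Myl9: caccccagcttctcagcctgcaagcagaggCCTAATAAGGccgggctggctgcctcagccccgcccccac
Fhl1: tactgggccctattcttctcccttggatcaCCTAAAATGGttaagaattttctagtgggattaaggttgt
Vcl: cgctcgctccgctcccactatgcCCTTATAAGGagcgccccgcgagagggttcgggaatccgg
Ldb3: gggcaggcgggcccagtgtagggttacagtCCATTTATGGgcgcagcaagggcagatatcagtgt
Myl6: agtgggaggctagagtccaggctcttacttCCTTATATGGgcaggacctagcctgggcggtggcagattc
Srf: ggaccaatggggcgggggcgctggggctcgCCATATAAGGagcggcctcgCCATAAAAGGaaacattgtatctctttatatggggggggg

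The boxes began 161 bases before the start site in Myl9, 102 in Fhl1, 227 in Vcl and 50 in Myl6, and 82 and 62 bases before it in Srf. In Ldb3, which has 2 start sites in the table, the box lay 35 and 109 bases before them. Of the 39 genes of the list, 33 (84.6%) had a promoter in the table, with 41 promoters in all. The CArG box was found on either strand in 7 of these 41 promoters (17.1%) and in 482 of all 32851 promoters of the table (1.47%), in the 250 bases before the start. The motif TATAAA was in 5 of the 41 (12.2%) and in 12.4% of all promoters, the palindromic estrogen response element in 0 of the 41 and 0.0639% of all, and AACCGGTT in 0 of the 41 and 0.116% of all. A match is a stretch of letters, and binding was not measured.

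Smooth muscle genes were lower in endometrium almost without exception. All 39 genes of the list were tested, 38 were lower, 0 were higher (0 also by DESeq2, and 0 at an unadjusted p under 0.05 in edgeR), and Casq2 was not called. Their median log2 fold change was −3.20, and it was −3.86 without mouse 13 with 38 still lower. Summed over the list, expression in the endometrium of 6 mice lay between 3128 and 5456 CPM, whereas the endometrium of mouse 13 gave 34459 CPM. The 7 myometria gave 45847 to 85824 CPM, so that the endometrium of mouse 13 stood nearer to the myometria than to the other endometria but remained below all of them.

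Acta2 (smooth muscle actin, chromosome 19, 34315580 to 34329826, mm9) had 38.4, 127, 17.1, 112, 73.5, 3279 and 231 CPM in the endometrium of mice 2, 4, 6, 9, 11, 13 and 14. In the myometrium of the same mice it had 7589, 5083, 8868, 10044, 10924, 5957 and 7601 CPM. The layers did not overlap, and mouse 13 held the highest endometrium. Its log2 fold change was −6.09 ± 0.40 (SE, edgeR adjusted p = 4.24e-22) and −6.71 without mouse 13. Here and below, a ± not marked SD is the log2 fold change over the root of edgeR's F statistic. That fit draws the variance of each gene towards that of other genes, so this SE does not show the spread among mice. Among mice the difference of Acta2 was −5.91 ± 2.60 (SD, n = 7 mice) on the log2(CPM + 1) scale. A robust form of the same fit, chosen after seeing the data, gave an adjusted p of 0.0129, since it does not draw the variance of a gene with 1 deviant mouse towards that of other genes.

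Genes of the same apparatus behaved alike. Myh11, the smooth muscle myosin heavy chain, ranged from 5.59 to 732 CPM in endometrium with a median of 17.0 and from 1206 to 1744 CPM in myometrium with a median of 1591 (log2 fold change −5.66 ± 0.39, edgeR adjusted p = 1.92e-21). Tagln and Cnn1, which bind actin filaments in smooth muscle, fell by 6.40 and 6.10 on the log2 scale, and Actg2, the enteric smooth muscle actin, fell by 6.12. In each of the 4 genes the highest endometrium, that of mouse 13, lay below the lowest myometrium. Pcp4, a small calmodulin-binding protein, had the deepest difference of any gene tested: 5.76 to 1001 CPM in endometrium (median 21.0) and 1275 to 4279 CPM in myometrium (median 3047), with a log2 fold change of −6.65 ± 0.43 (edgeR adjusted p = 1.32e-22). Lmod1, which nucleates actin filaments in smooth muscle, had medians of 4.24 and 401 CPM and a log2 fold change of −5.23. In the robust fit the adjusted p was 0.0124 for Myh11 and 0.0114 for Pcp4. For Tagln, Cnn1, Actg2 and Lmod1 it lay between 0.0117 and 0.0153. Among mice the difference of Pcp4 was −6.56 ± 2.77 (SD, n = 7 mice) on the log2(CPM + 1) scale.

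The tropomyosins and light chains followed. Tpm2 had a median of 149.6 CPM in endometrium and 10414 CPM in myometrium, a log2 fold change of −5.48 ± 0.35, and Tpm1 fell by 4.68 on the log2 scale. Myl9, whose promoter is printed above, had 34.2 to 2958 CPM in endometrium and 2641 to 6255 CPM in myometrium, and the ranges overlapped through mouse 13 alone (−5.41 ± 0.36). Des, the intermediate filament protein desmin, overlapped in the same way, with 173 to 3392 CPM (median 350.4) in endometrium and 3166 to 6323 CPM (median 4205) in myometrium, and a log2 fold change of −3.25 ± 0.27. In the robust fit the adjusted p was 0.00873 for Tpm2, 0.0110 for Myl9 and 0.0124 for Des. Myl6, a light chain shared by muscle and other cells, differed less, with medians of 1376 and 7972 CPM and a log2 fold change of −2.21 ± 0.20.

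Of the other genes whose promoters are printed, Vcl had medians of 9.33 CPM in endometrium and 72.4 CPM in myometrium (log2 fold change −2.93 ± 0.32), and its ranges did not overlap. Fhl1 had medians of 18.6 and 251 CPM (−3.18 ± 0.32). Srf, at 3.84 to 39.4 CPM in endometrium and 25.9 to 52.9 CPM in myometrium, fell by 1.38 on the log2 scale (edgeR adjusted p = 0.00123). Ldb3 was at 0 to 11.0 CPM in endometrium and 5.18 to 26.9 CPM in myometrium (−2.56 ± 0.67, edgeR adjusted p = 0.00239, and 0.0839 without mouse as a block). In mouse 13 alone, Fhl1, Srf and Ldb3 were higher in endometrium (230, 39.4 and 11.0 CPM) than in myometrium (146, 28.4 and 8.13 CPM). Fhl1, Vcl, Ldb3 and Srf were taken up for their promoters, after their values had been seen.

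**Figure D2:**
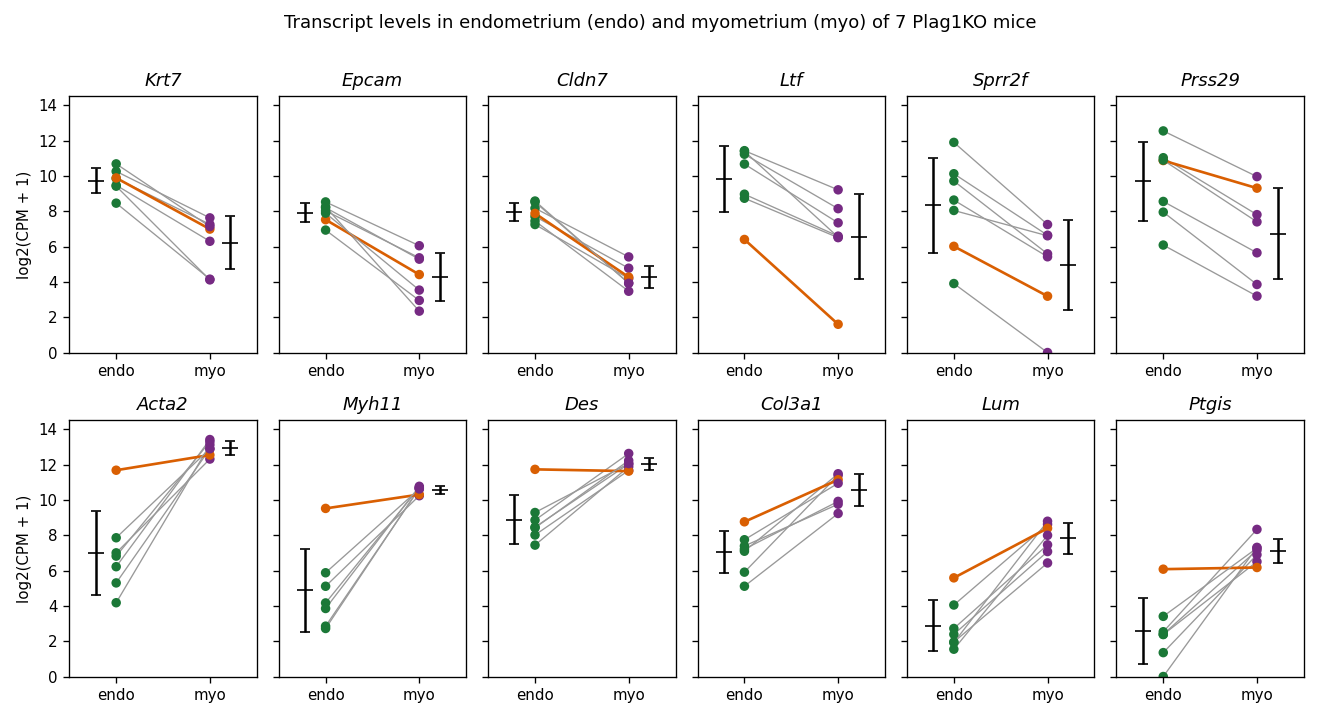
Expression of 12 genes on the log2(CPM + 1) scale (vertical axis) in endometrium (green) and myometrium (purple) of the 7 KO mice, each line joining the layers of 1 mouse, mouse 13 in orange, with the mean and SD of each layer beside the points. Lines of Acta2 and Myh11 rise steeply towards the myometrium except in mouse 13, whose endometrium held 3279 CPM of Acta2, and lines of the genes in the upper row fall in 7 of 7 mice.

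Genes of striated muscle fibres were also counted in the uterine wall. Of 18 genes on that list 9 were tested, 8 were lower in endometrium and 0 higher, with a median log2 fold change of −3.58 and of −5.11 without mouse 13. Summed, they gave 9.61 to 14.9 CPM in the endometrium of 6 mice, 225 CPM in that of mouse 13 and 493 to 674 CPM in the myometria. Acta1, the actin named for skeletal muscle, had medians of 3.11 and 319.7 CPM (−5.25 ± 0.36), Tnnt2, a cardiac troponin, had 0 and 60.01 CPM (−4.50 ± 0.45), and Ckm, muscle creatine kinase, had 1.40 and 47.6 CPM (−3.06 ± 0.45). In mouse 13 Ckm was higher in endometrium, at 38.1 CPM, than in myometrium, at 28.4 CPM. Tnni2, a troponin of fast skeletal fibres, was the exception among the 4 in not standing out in mouse 13, with at most 6.36 CPM in any endometrium and 10.1 to 91.4 CPM in myometrium (−4.14 ± 0.38). The myosin heavy chains of skeletal fibres Myh1, Myh2, Myh4 and Myh7 did not reach the filter on low counts.

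Regulators of contraction had a median log2 fold change of −1.60, with 16 of 22 tested genes lower and 1 higher in endometrium. Rgs2, which damps receptor signalling through G proteins, ranged from 51.8 to 349 CPM in endometrium and from 294 to 1109 CPM in myometrium (−1.92 ± 0.25, edgeR adjusted p = 2.36e-09). Atp2a2, the pump that returns calcium to its store, fell by 1.38 and Pde5a, which breaks down cyclic GMP, fell by 1.43 on the log2 scale. Oxtr, the oxytocin receptor, was at 0 to 12.7 CPM in endometrium and 3.36 to 32.7 CPM in myometrium (−2.21 ± 0.51, edgeR adjusted p = 0.000528), lower in endometrium in 7 of 7 mice. The 1 gene called higher was Ednrb, an endothelin receptor (0.91 ± 0.34, edgeR adjusted p = 0.0461), a call lost without mouse as a block (adjusted p = 0.0855), with DESeq2 (0.163), and when mouse 2, 4, 6, 9 or 13 was left out (0.0601 to 0.264, and 0.143 without mouse 13). Oxtr was chosen after its values were seen.

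Epithelial genes were higher in endometrium. Of 24 tested, 22 were higher and 0 lower, with a median log2 fold change of 2.93, and Ocln and Grhl2 were not called. Summed over the list, endometrium held 3326 to 7273 CPM and myometrium 357 to 1235 CPM, with no overlap, and the endometrium of mouse 13 lay inside the range of the others at 3985 CPM. The summed epithelial list was thus above 0 in each myometrium, as the summed smooth muscle list was in each endometrium.

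Krt7 (a keratin of simple epithelia, chromosome 15, 101241474 to 101260744, mm9) had 350.4 to 1639.9 CPM in endometrium (median 926) and 16.3 to 196 CPM in myometrium (median 126), without overlap. Its log2 fold change was 3.35 ± 0.23 (edgeR adjusted p = 4.88e-21). Krt8 and Krt18, the keratin pair of simple epithelia, were higher by 2.85 and 2.90 on the log2 scale. Epcam, an adhesion molecule of epithelial cells, had medians of 259 and 20.3 CPM (3.39 ± 0.27), and Cdh1, the epithelial cadherin, had 27.8 and 3.36 CPM (2.73 ± 0.40). Cldn7, a tight junction claudin, gave a difference with a mean of 3.65 ± 0.78 (SD, n = 7 mice) on the log2(CPM + 1) scale.

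Elf3, Dlx5 and Pax8, transcription factors of epithelia, were higher in endometrium. Elf3 had medians of 164 CPM in endometrium and 14.3 CPM in myometrium (3.55 ± 0.28). Dlx5, a homeobox factor of uterine epithelium, had 158 and 13.4 CPM (3.56 ± 0.29), and Pax8, a paired-box factor of the female tract, had 51.7 and 6.10 CPM (3.58 ± 0.34). In all 3 the ranges did not overlap and the endometrium was higher in 7 of 7 mice. Spint2, a protease inhibitor, had the smallest called difference on the list, 1.15 ± 0.21. Tspan1, a tetraspanin of secretory epithelia, had medians of 171 and 8.64 CPM (3.70 ± 0.30).

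Secreted products of the luminal epithelium were higher in endometrium and varied widely among mice. Of 21 tested genes 18 were higher and 0 lower, with a median of 2.93, and the summed level ran from 6927 to 31894 CPM in endometrium. Ltf (lactoferrin, an estrogen-induced antimicrobial protein, chromosome 9, 110921796 to 110945270, mm9) had 2395, 425, 2683, 1627, 2754, 83.5 and 498 CPM in the endometrium of mice 2, 4, 6, 9, 11, 13 and 14, and 282, 89.8, 91.7, 161, 592, 2.03 and 95.3 CPM in their myometrium. The ranges overlapped across mice, yet within each mouse the endometrium was higher, and the log2 fold change was 3.09 ± 0.24 (edgeR adjusted p = 1.1e-18). Mouse 13 had the lowest Ltf in both layers.

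Lcn2, which binds bacterial siderophores, ranged from 1267 to 14255 CPM in endometrium and from 158 to 1915 CPM in myometrium (3.07 ± 0.23). Wfdc2, a secreted protease inhibitor of the female tract, had 1899.9 to 4529 CPM and 126 to 700.3 CPM without overlap (3.21 ± 0.24). C3, the central complement component and an estrogen-responsive product of the uterine epithelium, had medians of 1202 and 194 CPM (2.16 ± 0.20), again without overlap. Sprr2f and Sprr2g, cornified envelope proteins induced by estrogen, lie next to each other on chromosome 3 (92169109 to 92170364 and 92177837 to 92179151, mm9). Sprr2f spanned 14.0 to 3813 CPM across the endometria, and Sprr2g spanned 9.79 to 756 CPM. Within mice the difference of Sprr2g was nevertheless even, a mean of 3.37 ± 0.46 (SD, n = 7 mice) on the log2(CPM + 1) scale. Clca1, a secreted protein of mucous cells, ranged from 6.99 to 1149 CPM, and Oit1, Obp2a and Wfdc10, the last with the largest log2 fold change of the list at 3.75 ± 0.33, were also higher in 7 of 7 mice.

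Gland genes, 9 of which were tested, were higher in 7 cases and lower in 0, with a median of 2.57. Prss28 and Prss29, the implantation serine proteinases, are neighbours on chromosome 17 (25445591 to 25448821 and 25455599 to 25459626, mm9). Prss29 had 5979, 2089, 66.9, 246, 374, 1869 and 1896 CPM in the endometrium of mice 2, 4, 6, 9, 11, 13 and 14, and was higher there than in the paired myometrium in 7 of 7 mice (2.89 ± 0.23, edgeR adjusted p = 1.54e-18). Prss28 was higher in 6 of 7 (2.57 ± 0.29), and Spink1, a trypsin inhibitor, was higher in 7 of 7 (3.07 ± 0.29). The mice with the lowest Prss29, mice 6, 9 and 11, were not those with the lowest Ltf, which were mice 4, 13 and 14.

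Of the genes for water and ion transport 5 of 14 tested were higher and 2 lower. Among the higher genes were the water channels Aqp5 (medians 121 and 30.5 CPM, 2.44 ± 0.26) and Aqp8 (558 and 104 CPM, 2.40 ± 0.23), the sodium pump subunit Atp1b1, and the chloride channel Cftr. Lower were Aqp1, the water channel of endothelium, at 10.9 to 102 CPM in endometrium and 116 to 294 CPM in myometrium (−2.50 ± 0.25), and the bicarbonate transporter Slc4a4 (−1.56 ± 0.48, edgeR adjusted p = 0.0124, and 0.102 with spike-in scaling). Genes of the secretory pathway, which fold and pass proteins through the endoplasmic reticulum, were higher in 16 of 28 cases and lower in 0, with a median of 0.76. P4hb, a disulfide isomerase, had medians of 611 and 266 CPM without overlap (1.19 ± 0.20). Sec61b and Ssr4, subunits of the translocation channel and of its partner complex, rose by 0.91 and 0.71, the latter not past the threshold without mouse 14 (edgeR adjusted p = 0.0634).

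**Figure D3:**
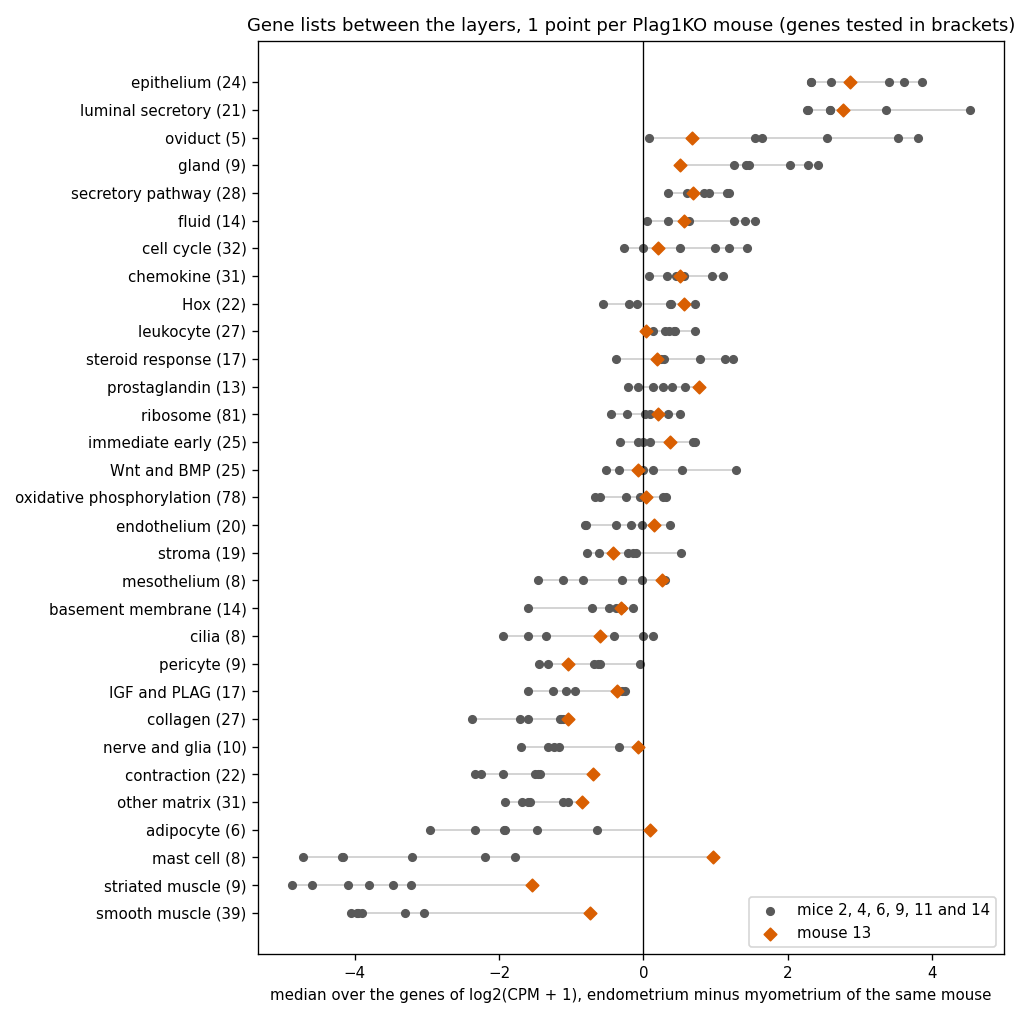
Median difference of endometrium minus myometrium on the log2(CPM + 1) scale for each gene list (rows) in each of the 7 KO mice (points), with mouse 13 marked. Epithelium lies between 2.32 and 3.86 in all mice, whereas for smooth muscle 6 mice lie between −4.06 and −3.04 and mouse 13 at −0.75.

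Collagen genes and other matrix genes were lower in endometrium. Of 27 genes for collagens and their processing, 20 were lower and 1 higher, with a median of −1.50, and of 31 other matrix genes, 24 were lower and 2 higher, with a median of −1.37 (−0.92 with spike-in scaling). Col1a1 and Col3a1, the main fibrillar collagens, had medians of 289 and 2675 CPM and of 147 and 1966 CPM, with no overlap (−3.05 ± 0.22 and −3.48 ± 0.25). Col1a2 fell by 2.58. Sparcl1, a relative of the matrix protein Sparc, varied little among mice, with a difference of −2.08 ± 0.26 (SD, n = 7 mice) on the log2(CPM + 1) scale, with 281 to 526 CPM in endometrium and 1056 to 2378 CPM in myometrium.

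Lum (lumican, chromosome 10, 97028135 to 97035337, mm9) had 1.92 to 47.0 CPM in endometrium, median 4.24, and 85.2 to 442 CPM in myometrium, median 254 (−4.72 ± 0.30, edgeR adjusted p = 1.32e-22). Dcn (decorin), a gene close to it on the same chromosome, had medians of 1107 and 2922 CPM (−1.29 ± 0.18). Both bind collagen fibrils. Postn, a matricellular protein of fibroblasts chosen after its values were seen, had medians of 6.99 and 288 CPM, with 120.4 CPM in the highest endometrium (−4.63 ± 0.35), and Sparc fell by 2.27. The genes that were higher in endometrium were Col18a1, the basement membrane collagen that gives rise to endostatin (0.96 ± 0.24), Fbln1, fibulin 1 (1.49 ± 0.22, in 6 of 7 mice), and Mfap5. Among 14 laminins and other basement membrane genes, Lamb3 was higher and Lama4, Hspg2, Lamc1 and Nid1 were lower, with a median of −0.54.

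Stromal genes of the endometrium did not mark the scraped layer. Of 19 tested genes 0 were higher and 4 lower (Tcf21, Zeb1, Vim and Hand2), with a median of −0.33 that became 0.15 with spike-in scaling. Vim (vimentin) had medians of 295 and 699 CPM (−1.07 ± 0.20). Hoxa10, a homeobox factor needed for decidualisation, had 52.6 to 108 CPM in endometrium and 69.9 to 126 CPM in myometrium and was not called (−0.41 ± 0.22, edgeR adjusted p = 0.1998), nor was Pdgfra, a receptor of fibroblasts (−0.41 ± 0.25, edgeR adjusted p = 0.286). None of the 19 stromal genes was higher in the scraped layer by edgeR, by DESeq2 or by limma-voom, or at an unadjusted p under 0.05 in the edgeR test.

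Steroid receptors and their targets divided. The list had 17 tested genes, 6 of them higher and 4 lower, against 11.9% and 9.55% of all genes, with a median of 0.33. Esr1, the estrogen receptor, had 57.3 to 243 CPM in endometrium and 57.1 to 110.0 CPM in myometrium, and the difference of 0.33 ± 0.23 did not pass (edgeR adjusted p = 0.355), although with spike-in scaling it was 0.81 (0.00587). Pgr, the progesterone receptor, had medians of 31.1 and 56.5 CPM (−1.15 ± 0.28, edgeR adjusted p = 0.000829), a call that did not hold without mouse as a block (0.0577) or with spike-in scaling (0.0632). Nr3c1, the glucocorticoid receptor, had 3.84 to 14.0 CPM and 14.9 to 58.2 CPM without overlap (−1.90 ± 0.34). Fkbp4, a chaperone of steroid receptors, was higher, with medians of 188 and 63.5 CPM (1.97 ± 0.24). Other called targets included Msx1, Msx2, Cyp26a1, Ltf and Muc1, all higher, and Igf1, which had 18.2 to 169.6 CPM in endometrium and 138 to 313 CPM in myometrium (−1.82 ± 0.25). Esr1 and Pgr were chosen after their values were seen.

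Insulin-like growth factors, their binding proteins and the PLAG family formed a list of interest because PLAG1 is known to activate Igf2. Of 17 tested genes 8 were lower in endometrium and 0 higher, with a median of −0.99. Igfbp6 had 174 to 785 CPM in endometrium and 969 to 1612 CPM in myometrium (−2.18 ± 0.23). Igfbp2, chosen after its values were seen, was at 0 to 4.24 CPM and 2.97 to 32.5 CPM (−4.08 ± 0.60), and Igfbp5 fell by 0.99, a call lost without mouse as a block (edgeR adjusted p = 0.101) and with spike-in scaling (0.0651). Igf2 itself gave at most 3.11 CPM in any endometrium, which is near the floor of 3 counts, and 1.55 to 13.4 CPM in myometrium (−1.99 ± 0.63, edgeR adjusted p = 0.0146, and 0.0600 with spike-in scaling). The relatives of the deleted gene were not called: Plagl1 had medians of 0.960 and 6.11 CPM (−1.52 ± 0.71, edgeR adjusted p = 0.120) and Plagl2 had 6.36 and 3.36 CPM (0.75 ± 0.58, 0.412).

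Genes of Wnt and BMP signalling were called in both directions, 6 of 25 higher and 4 lower, with a median of 0.18. Among all genes 11.9% were higher and 9.55% lower. Sfrp2, a secreted Wnt modulator, had medians of 212 and 79.0 CPM (1.67 ± 0.26), whereas its relative Sfrp1 had 9.32 and 28.2 CPM (−1.62 ± 0.36). Id2 and Id3, which answer to BMP, fell by 1.46 and 1.03, the latter not past the threshold with spike-in scaling (edgeR adjusted p = 0.0578). Hox genes, which pattern the tract along its length, had 22 tested members, 5 higher and 4 lower, against the same shares of all genes. The 5 higher were Hoxb2, Hoxb5, Hoxb6, Hoxb7 and Hoxb8, and the 4 lower were Hoxa7, Hoxa9, Hoxc6 and Hoxd8, a grouping noticed after the values were seen.

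Hoxb6 had 25.4 to 68.2 CPM in endometrium and 0 to 17.0 CPM in myometrium (2.11 ± 0.34, edgeR adjusted p = 8.02e-07), and Hoxb7 had 24.2 to 66.9 CPM and 2.03 to 18.999 CPM (2.34 ± 0.33, edgeR adjusted p = 2.18e-08). In neither did the layers overlap. Hoxb8 had medians of 18.7 and 2.03 CPM (3.31 ± 0.46). The 3 genes lie in a row on chromosome 11, from 96143219 to 96162883 (mm9), and Hoxb7 and Hoxb8 overlap in the annotation. Hoxa7 was low in both layers, with medians of 1.40 and 8.64 CPM (−2.33 ± 0.65), and Hoxc6 had 0 to 4.24 CPM and 0 to 16.3 CPM (−2.45 ± 0.83), a call lost when mouse 2, 4, 6 or 14 was left out (edgeR adjusted p = 0.0656 to 0.135).

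Of 32 cell cycle genes 3 were higher (Ube2c, Tyms and Rrm2) and 1 was lower (Ccnd1), shares near or under the 11.9% and 9.55% of all genes. Without mouse 13 the counts were 2 and 2. Ube2c, a ubiquitin carrier of mitosis, had medians of 41.99 and 18.3 CPM (0.95 ± 0.31, edgeR adjusted p = 0.0189), a call lost with DESeq2 (0.0705) and when mouse 2, 4, 6 or 9 was left out (0.0689 to 0.140). Ccnd1, cyclin D1, had 35.5 and 69.1 CPM (−1.04 ± 0.27), a call lost without mouse as a block (edgeR adjusted p = 0.116) and with spike-in scaling (0.111). Of 13 prostaglandin genes Cbr1, Ptgs1 and Akr1c18 were higher and Ptgis was lower, and without mouse 13 there were 3 higher and 2 lower. Ptgis, prostacyclin synthase, had 0 to 66.5 CPM in endometrium and 71.1 to 321 CPM in myometrium (−4.12 ± 0.39). Ptgs1, which makes the precursor of prostaglandins, had medians of 34.3 and 26.9 CPM and rose by 1.06 (edgeR adjusted p = 0.05003 when mouse 14 was left out), and Cbr1, a carbonyl reductase, had 93.7 and 47.6 CPM (0.98 ± 0.23) with a difference of 0.96 ± 0.22 (SD, n = 7 mice) on the log2(CPM + 1) scale.

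Immediate early and heat shock genes, which respond to handling of tissue, were 6 of 25 higher and 5 lower, with a median of 0.46. The shares of all genes were 11.9% and 9.55%. Ier3 had medians of 442 and 87.4 CPM (2.41 ± 0.22), whereas Jun fell by 0.78 (edgeR adjusted p = 0.00483, and 0.360 with spike-in scaling) and Hspa1b, an inducible chaperone, had 1.40 to 18.6 CPM and 28.2 to 63.0 CPM (−2.51 ± 0.34).

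Leukocyte genes were 7 of 27 higher and 1 lower, against 11.9% and 9.55% of all genes, with a median of 0.28. Cd74, the invariant chain of antigen-presenting cells, had medians of 493 and 309 CPM, was higher in endometrium in 7 of 7 mice (0.56 ± 0.19, edgeR adjusted p = 0.0242), and was not called without mouse as a block (0.239) or when mouse 4, 6, 9 or 14 was left out (0.0591 to 0.110). Mrc1, the mannose receptor of tissue macrophages, was the 1 lower gene (−1.52 ± 0.40). Chemokine, complement and interferon genes were 11 of 31 higher and 3 lower, the latter near the share of all genes. Cxcl17, a mucosal chemokine, ranged from 40.7 to 1022 CPM in endometrium and from 6.10 to 139.8 CPM in myometrium (3.06 ± 0.27), and Cxcl12, a chemokine of stroma, had medians of 123 and 309 CPM (−1.07 ± 0.21).

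Mast cell genes were lower in endometrium, 5 of 8 tested, with a median of −2.80 that became −4.52 without mouse 13. In mouse 13 the direction was the opposite, with the list at 281 CPM in endometrium and 154 CPM in myometrium and a median difference of 0.96 on the log2(CPM + 1) scale. The sum was also slightly higher in the endometrium of mouse 2 (137 against 133 CPM), though its median difference was −1.78. Within mouse 13 the gene Tpsab1 kept the usual direction, with 14.0 CPM in endometrium and 26.4 CPM in myometrium. Cma1 (mast cell chymase) had 0 to 81.4 CPM in endometrium with a median of 0.960, and 27.9 to 87.4 CPM in myometrium (−3.18 ± 0.46). Mcpt4, a protease of connective tissue mast cells, had medians of 0 and 38.8 CPM, with 54.7 CPM in mouse 13 (−3.45 ± 0.51). The calls of Cma1 and Mcpt4 did not hold in the robust fit (adjusted p = 0.0899 and 0.107), and that of Cma1 did not hold without mouse as a block (0.0838). Tpsab1, a tryptase, and Cpa3, a carboxypeptidase, both of mast cell granules and chosen after their values were seen, had medians of 0 CPM in endometrium and of 26.4 and 14.1 CPM in myometrium. Hdc, which makes histamine, went the other way, with 29.5 to 123 CPM in endometrium and 2.04 to 15.9 CPM in myometrium (2.70 ± 0.32, edgeR adjusted p = 7.62e-11), without overlap.

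Markers of other cells that the wall or the scraping could hold were examined as well. Endothelial genes were 0 of 20 higher (2 at an unadjusted p under 0.05 in edgeR, 0 by DESeq2) and 4 lower (Lyve1, Cldn5, Ecscr and Pdpn), with a median of −0.14 that became 0.35 with spike-in scaling. Of all genes 11.9% were higher and 9.55% lower. Pericyte genes were 5 of 9 lower, and Mcam had medians of 4.67 and 49.4 CPM (−2.97 ± 0.34) and Kcnj8, a potassium channel of pericytes, 27.8 and 63.9 CPM (−1.22 ± 0.26). Of 6 adipocyte genes 4 were lower, among them Fabp4, the fatty acid carrier of adipocytes and capillaries (medians 1.86 and 66.9 CPM, −4.22 ± 0.42), and Thrsp was higher. Of 10 nerve and glial genes 5 were lower, among them Stmn2 of neurons (6.99 and 44.9 CPM, −3.23 ± 0.35) and Pmp22 of myelin (108 and 259 CPM, −1.46 ± 0.21), and 2 were higher, Gap43 (1.49 ± 0.41) and Ngfr (0.98 ± 0.31, edgeR adjusted p = 0.0138, 0.325 without mouse as a block, and 0.0628 and 0.0675 when mouse 2 or 6 was left out).

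Of 8 mesothelial genes 3 were lower (Gpm6a, Upk3b and Msln) and Wnt16 was higher, against 9.55% and 11.9% of all genes. Without mouse 13 only Upk3b of the 3 was called lower, with edgeR adjusted p of 0.0632 for Gpm6a and 0.0712 for Msln. Of 8 cilium genes 1 was called, Rsph1, which was lower (medians 1.86 and 23.5 CPM, −2.26 ± 0.48), a share near the 9.55% of all genes. Without mouse 13 there were 3, all lower. Of 5 oviduct genes Gpx3, Pax2, Ovgp1 and Pax8 were higher and Itln1 lower, and Ovgp1, the oviductal glycoprotein, ranged from 10.6 to 492 CPM in endometrium and from 0 to 124 CPM in myometrium (2.89 ± 0.37, edgeR adjusted p = 7.15e-10, and 0.0702 in the robust fit). Of 2 blood and liver genes tested Ttr was higher (3.09 ± 0.58). The 15 genes of seminal fluid and sperm summed to 0 CPM in every library of either layer. The part of these other cell types in the differences was not tested.

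Ribosomal proteins served as a reference list. Of 81 tested 1 was higher (Rps25, with an edgeR adjusted p of 0.0625 without mouse 13) and 1 lower (Rps14, −0.86 ± 0.18, with an adjusted p of 0.0527 without mouse as a block and 0.0974 with spike-in scaling), and the median was 0.07, or 0.56 with spike-in scaling. Oxidative phosphorylation genes were 4 of 78 higher and 14 lower, against 11.9% and 9.55% of all genes. Their median was −0.04 and became 0.43 with spike-in scaling. Cox6c, a subunit of cytochrome oxidase, had 988 to 2643 CPM and 2726 to 4287 CPM without overlap (−1.17 ± 0.18), while Cox5a rose by 0.71. Cox8b, a form of a subunit found in heart and muscle and chosen after its values were seen, had medians of 0 and 28.4 CPM (−4.15 ± 0.52).

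The endometrium of mouse 13 stood apart by its muscle transcripts. A layer score, the mean log2(CPM + 1) of 4 epithelial genes (Krt8, Krt18, Epcam and Cdh1) less that of 4 smooth muscle genes (Myh11, Cnn1, Acta2 and Des), was −3.16 in its endometrium against 0.74 to 3.57 in the other 6, and the KO myometria scored −8.40 to −5.65. The score genes were chosen with results known, so that its gap between layers is a description and not a test. The difference of the score between layers was 8.27 ± 2.57 (SD, n = 7 mice), 3.57 in mouse 13, and 9.05 ± 1.66 in the other 6. The muscle part of the score was 10.7 in its endometrium and 4.40 to 7.28 in the others, while the epithelial part, 7.54, lay within their range of 7.19 to 8.18. Each of the 3 libraries showed this: the smooth muscle list summed to 33032, 29908 and 36314 CPM, Acta2 stood at 2934, 3350 and 3327 CPM, and Krt7 at 839, 1011 and 931 CPM, each scaled to the library's own total. Over gene counts the 3 libraries differed from each other by a chi-square per degree of freedom of 3.23 to 4.93, against 6.61 to 16.05 for the 33 pairs of libraries from different mice.

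**Figure D4:**
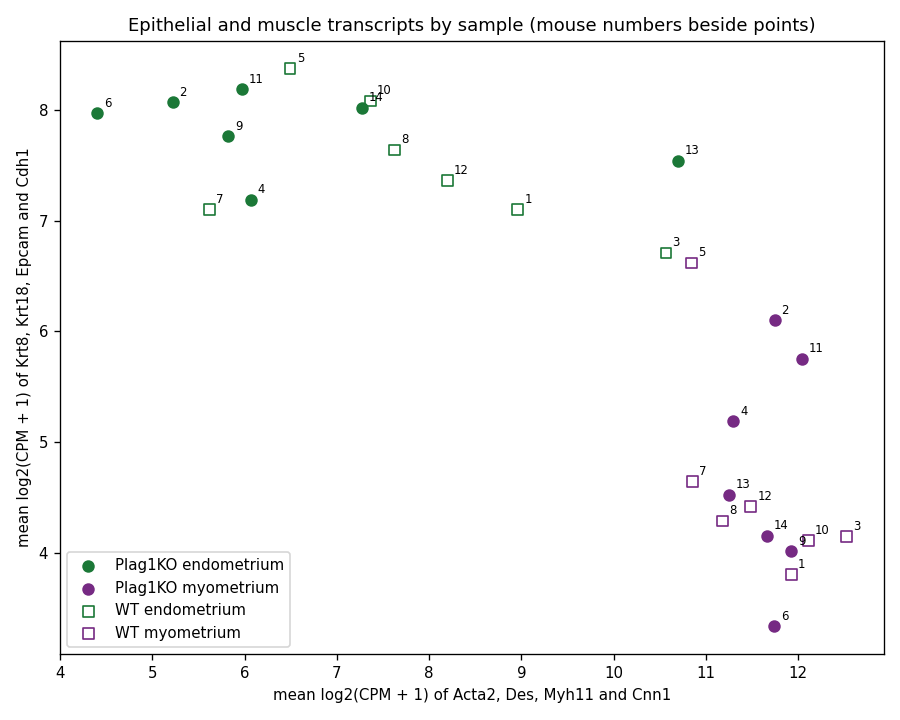
Mean log2(CPM + 1) of 4 epithelial genes (vertical axis) against that of 4 smooth muscle genes (horizontal axis) in each sample, filled circles for KO and open squares for WT, green for endometrium and purple for myometrium, with mouse numbers. The other KO endometria lie at 4.40 to 7.28 on the muscle axis and that of mouse 13 at 10.7, close to the WT endometrium of mouse 3 at 10.6.

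Leaving out mouse 13 removed 381 calls and added 186. The number of genes called in either direction changed by at most 2 in any list. Of the added genes, Arl3, a small GTPase of cilia (−0.95, edgeR adjusted p = 0.00802), Srek1, a splicing regulator (−0.94, 0.0200), and Ahi1, a ciliary protein (−0.93, 0.0217), were lower in the endometrium of the 6 remaining mice, as were Prkcb, a protein kinase C (−0.94, 0.0108), and Slc43a3 (−0.92, 0.0156). With all 7 mice the differences were −0.67, −0.71, −0.67, −0.64 and −0.56, and none of the 5 passed.

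The same layers of 7 WT mice differed at 1850 of 13227 genes (14.0%), 927 higher (7.01%) and 923 lower (6.98%). Total counts went down to 264095 in the WT endometrium libraries, against 468519 in those of KO mice. In myometrium the lowest totals were 460287 in WT and 318286 in KO mice. The part of depth, and of the less certain WT pairing described below, in the number of WT calls was not tested. Of the 2776 genes called in KO mice, 1443 were also called in WT mice (52.0% of the KO calls and 78.0% of the WT calls), and 0 were called in opposite directions. Among the 2754 KO calls that were tested in WT mice 2663 had the same direction there. Across 12655 genes the log2 fold changes of the genotypes had Pearson's r of 0.755, a description across genes, which are not independent replicates. The epithelium list had a median of 2.77 in WT mice, with 23 of its genes higher, and the smooth muscle list a median of −2.91, with 35 lower.

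**Figure D5:**
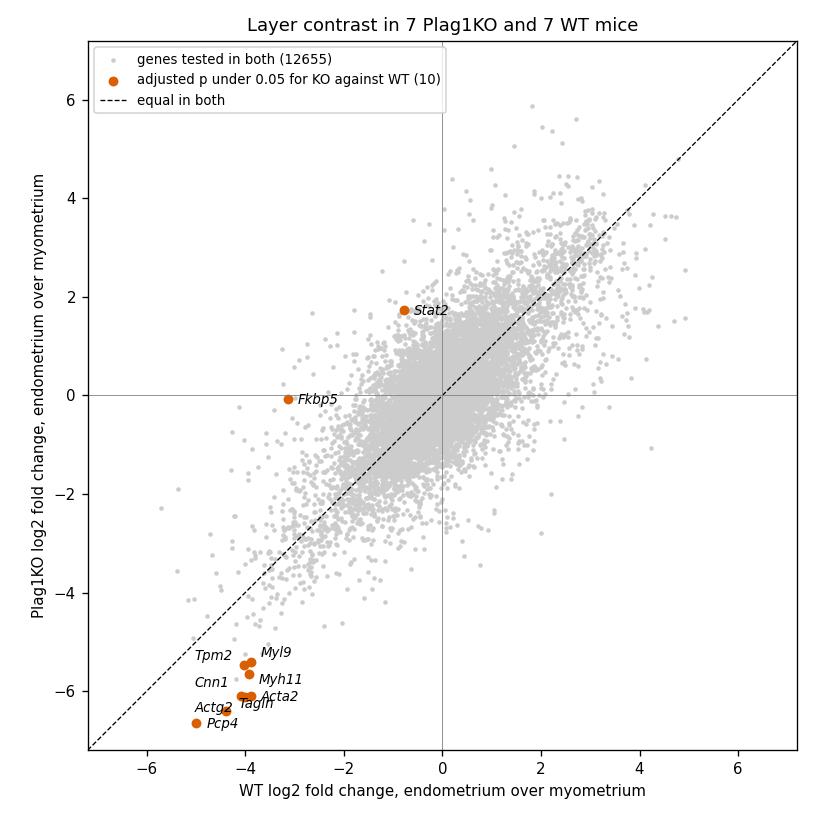
Log2 fold change of endometrium over myometrium in KO mice (vertical axis) against that in WT mice (horizontal axis) for the 12655 genes tested in both, each point a gene. Named points are those with a genotype by layer interaction, and the smooth muscle genes among them sit below the diagonal, near −6 in KO and −4 in WT mice.

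Whether the layer difference depended on genotype was tested by an interaction term over both genotypes. Of 14314 genes 10 passed (0.0699%), 2 with the difference more positive in KO mice (0.014%) and 8 more negative (0.0559%), and 564 had an unadjusted p under 0.05. The 8 were all on the smooth muscle list. Acta2 had a layer difference of −6.09 in KO and −3.88 in WT mice (difference −2.23 ± 0.35, SE, edgeR adjusted p = 2.49e-06), and Actg2 −6.12 and −4.001 (−2.15 ± 0.36, 1.36e-05). Tagln, Cnn1, Myh11, Pcp4, Myl9 and Tpm2 had differences from −2.06 to −1.46. The other 2 were Stat2, a signal transducer of interferon (1.73 in KO and −0.79 in WT mice, edgeR adjusted p = 0.0149), and Fkbp5, a glucocorticoid-responsive chaperone (−0.07 and −3.13, 0.0171).

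The interaction was not stable to the way it was tested. No gene passed without mouse as a block (658 with an unadjusted p under 0.05), with DESeq2 (329), with spike-in scaling (716) or with a filter at 10 CPM (318), and 17 passed without mouse 13. Permuting whole mice between genotypes, the difference of Acta2 between a KO mean of −5.91 ± 2.60 (SD, n = 7 mice) and a WT mean of −3.91 ± 1.71 gave an exact two-sided p of 0.115 over 3432 splits, and the first 5 genes gave 0.115 to 0.159. Without mouse 13, when the KO mean of Acta2 was −6.76 ± 1.47 (n = 6 mice), the exact p of the same 5 genes was 0.0035 to 0.0181 over 1716 splits. These genes had been picked by the interaction test in the same mice. Only the muscle-rich KO endometrium was left out, while that of WT mouse 3, with a muscle part of 10.6, was kept. This widens the gap between genotypes, so that no conclusion is drawn from these p-values or from the 17 genes. The muscle part of the score ranged from 4.40 to 7.28 in the endometrium of 6 KO mice, was 10.7 in mouse 13, and ranged from 5.62 to 10.6 in WT endometria. It is made of Acta2, Myh11, Cnn1 and Des, and Acta2, Myh11 and Cnn1 themselves passed the interaction test. The score therefore restates the values of that test and is not separate from it. The part of muscle left on the scraped layer in the genotype difference was not tested.

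Some of the genes named here share reads or positions with others. Clca1, Sec61b, Myl6, Fhl1, Hspa1b, Cd74, Mcpt4, Rps14 and Cox6c have near-identical copies of their 5′ end elsewhere (at least 95% identity over 50 or more of the first 100 bases), and genes such as Tagln, Pcp4, Des, Lmod1, Elf3, Wfdc10, Ptgis, Igf1 and Igf2 overlap another annotated gene, so that their counts are less certain.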

How the data were processed

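The authors aligned STRT reads to mm9 with TopHat, removed duplicate molecules by barcode and deposited raw counts per UCSC gene for 24422 genes and 92 ERCC spike-ins. The paper names Homer and the labels another counter. Use of strand in counting is not given in the sources used here. From the deposited counts, the libraries of mouse 13 were summed and genes kept at 1 CPM or more in at least 5 samples. Layers were compared in edgeR 4.0.16 (R 4.3.3) with TMM factors, a quasi-likelihood fit and mouse as a block, and p-values were adjusted by Benjamini-Hochberg over all genes. Pairing comes from the mouse number in the labels, and deviations of both layers of a KO mouse correlated at 0.0867 to 0.185. In WT mice they correlated at 0.0281 to 0.132. The endometrium of WT mice 1, 5, 10 and 12 correlated best with the myometrium of another mouse, so that pairing is less certain there. CPM were scaled by gene counts and TMM factors (floors and single libraries by gene counts alone), and log2 levels use a pseudocount of 1 CPM. Intervals and floors cover counting error only. Alternatives were DESeq2 1.42.0, limma 3.58.1 (voom), RLE factors, spike-in scaling, other filters, no block, mice left out and both genotypes in 1 fit. The procedure was tested on simulated data in which genes had the same spread and no mouse stood apart. That test does not cover a deviant sample such as the endometrium of mouse 13.

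The members, the lists and the score genes were chosen with earlier results of these data known. Named genes were the 8 score genes, the 12 most changed genes per direction (mean log2 CPM of 5 or more, called, same way in 7 of 7 mice), the 4 tested genes of highest mean log2 CPM of each list with up to 2 called against the list's majority, up to 5 interaction genes, the Plag1 family with Igf2, and 5 genes called only without mouse 13. Other interaction genes, and genes that spell out a small count, were named after their values were seen. Positions come from a mm9 annotation and promoters from RefSeq. Some members of the lists are not reported here.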

Additional observations from a re-analysis of the deposited data

Results flagged for a closer look

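In groups of 7 mice, a mouse was singled out when its distance to the nearest other mouse, as a share of the whole range, was past Dixon's 95% value. Of 264 groups checked, 32 held such a mouse. The 1 in 20 behind that value assumes independent and unselected groups. Many of these genes move together and some were named after their values were seen, so that 32 cannot be set against chance. The endometrium of mouse 13 accounted for 15 of the 32. On the log2(CPM + 1) scale it was highest for Des (11.73), Tpm1 (11.61), Tpm2 (11.98), Myl6 (11.89), Myl9 (11.53), Pcp4 (9.97), Fhl1 (7.85), Acta1 (7.06), Tnnt2 (4.63) and Ldb3 (3.59), all genes of muscle. It was also highest for the mast cell genes Mcpt4 (5.80) and Tpsab1 (3.91), for Fabp4 (4.36) and for Hoxc6 (2.39), and its layer score was the lowest endometrial one (−3.16). The myometrium of mouse 13 had the lowest Ltf (1.6002 against 6.505 to 9.21 in the others).

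The myometrium of mouse 9 had the fewest genes detected (10137 against 11531 to 12253), the highest spike-in share (2.61% against 1.36 to 1.66%) and the lowest Tnni2 (3.47). Its endometrium had the lowest Sec61b (9.05) and Fbln1 (6.56) and the highest Cd74 (10.31). The endometrium of mouse 11 was lowest for Spink1 (2.73) and highest for Fkbp4 (9.63), and its myometrium was lowest for Kcnj8 (4.72) and Plagl1 (0). Mouse 2 had the lowest endometrial Nr3c1 (2.28) and Gap43 (2.76) and the lowest myometrial Igf2 (1.35). Mouse 4 had the highest endometrial Pdgfra (6.28) and the lowest myometrial Cox8b (3.71), and mouse 14 the lowest endometrial Prkcb (2.76).

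Between genotypes, 10 genes differed in their layer difference by the edgeR interaction test. As KO minus WT on the log2 scale these were Acta2 (−2.23), Actg2 (−2.15), Tagln (−2.04), Cnn1 (−2.06), Myh11 (−1.78), Pcp4 (−1.72), Myl9 (−1.54), Tpm2 (−1.46), Stat2 (2.54) and Fkbp5 (3.07). No gene passed without mouse as a block, with DESeq2, with spike-in scaling or with a filter at 10 CPM.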

How the results depend on the processing

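The count of 2776 genes became 1461 with mice 2, 4 and 6 alone and 1277 with mice 9, 11, 13 and 14 alone, fits with fewer mice, and 2271 to 2624 with 1 mouse left out. Without mouse as a replicate block it was 2508, and with DESeq2 2124, so that neither moved it by over 1.5 times. For the named genes the call was lost without the block only where the text says so (9 genes). The share of calls that were higher in endometrium, 55.4%, was 50.2% with DESeq2, 51.4% with limma-voom, 51.9% with RLE factors, 83.8% with spike-in scaling, 48.1% with a filter at 10 CPM, 48.8% in mice 2, 4 and 6, 51.0% in the robust fit without mouse 13, and 50.8 to 55.4% with 1 mouse left out. The 10 genes with an interaction were 0 without the block, with DESeq2, with spike-in scaling or at 10 CPM, and 17 without mouse 13.

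With spike-in scaling the list medians were 1.23 for the secretory pathway, 0.15 for stroma, −0.92 for matrix, 0.62 for prostaglandin, 0.94 for immediate early, 0.77 for leukocyte, 0.96 for chemokine, 0.35 for endothelium, −0.27 for pericyte, 0.56 for ribosome, 0.43 for oxidative phosphorylation and 0.67 for Hox genes, against 0.54 over all genes. Without mouse 13 striated muscle was at −5.11. The layer difference in total counts ranged from 128338 to 207858 with 1 mouse left out and passed only without mouse 11. That in spike-in share ranged from −0.490 to −0.390 percentage points, and 6 pairs passed the adjustment only without mouse 11. With the 50 bases after the start included, 1.63% of all promoters held the CArG box and 13.6% TATAAA. Of 2664 comparisons of a named gene under an alternative, 2553 kept the call and direction, 92 lost it, 19 gained it and 0 reversed. The WT fit has no value without mouse 13, which is a KO mouse. Causes were not tested. Robust fits and the score without mouse 13 were chosen after seeing the data. Genes under about 10 CPM rest on a few counts per library.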
